A study of Mus musculus with 4 samples.

Results

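A set of 8 genes with little in common in protein type marked the epithelial class named Progenitor.2 in single-cell RNA-seq of mouse colonic organoids (colonoids, epithelial cultures grown in gel from distal colon). They were Ctla2a, Crct1, Prl2c2, Prl2c3, Pgf, Dynap, Basp1 and Fn1, which were found by symbol and made up 8 of the 30360 genes in the table. They had been picked because they led the list of genes higher in Progenitor.2 than in other classes, so their levels by class are given as a description and no test is attached to them. Colonoids from WT mice and from mice with a whole-body deletion of Tnfrsf1b, the gene of TNF receptor 2 (Tnfr2-/-), were cultured without or with tumor necrosis factor (TNF), which asked how loss of this receptor and its ligand change the cells that grow. The 4 groups were WT untreated (vehicle), WT TNF, Tnfr2-/- untreated (vehicle) and Tnfr2-/- TNF, with 1 culture and 1 library each, so no comparison between groups has a replicate check and no p-value is given. Donor mice were 16 weeks old, all cultures had been grown to passage 5 and were harvested 7 days post-passage (DPP), and the TNF cultures received 20 ng/ml from day 1 to day 6. The cells were depleted of apoptotic cells before 3' libraries were made. Runs of 4 values are ordered as the groups were just named.

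The libraries held 6155 cells, of which 4172 were in the 7 epithelial classes given by the authors, and 3 cell barcodes occurred in more than 1 library. Mesenchymal cells, in 4 further classes, made up 55.2%, 20.8%, 8.06% and 12.4% of the cells of each library. Progenitor.2 held 62, 273, 233 and 716 cells, or 5.50%, 23.5%, 22.8% and 83.4% of the epithelial cells. The median Progenitor.2 cell had 15574.5, 39167, 33685 and 37713.5 UMIs (unique molecular identifiers, each 1 counted RNA molecule), with 9.70%, 4.32%, 4.21% and 6.14% of UMIs from mitochondrial genes. The untreated WT cells of this class were therefore the fewest, the shallowest and the richest in mitochondrial RNA. Tnfrsf1b was at 9.76, 13.97, 2.05 and 7.59 counts per 1000000 UMIs (CPM) over all cells. In Progenitor.2 cells alone it was at 1.19, 14.7, 5.15 and 7.65 CPM, the first being 2 UMIs. The sources used here do not say which part of the gene was deleted, and 3' tags of Tnfrsf1b therefore do not check the genotype. The study itself reports, by qPCR, that the transcript was absent from Tnfr2-/- colonoids. In epithelial cells Xist was at 558 and 683 CPM in the WT libraries and at 0.158 and 0.101 CPM in the Tnfr2-/- libraries, and 4 Y-linked genes summed to 5.32, 29.4, 0.0790 and 0.151 CPM. A difference in the sex chromosomes of the cells therefore cannot be told apart from the genotype in any value below.

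Several of these genes are best known from the rodent placenta. Prl2c2 and Prl2c3 encode proliferins, secreted relatives of prolactin made by trophoblast giant cells, and lie on mouse chromosome 13, as do other prolactin-like genes. Pgf encodes placental growth factor, a member of the VEGF family that binds Flt1. Ctla2a encodes an inhibitor of cathepsin L-like cysteine proteases that resembles the propeptide of those enzymes. Crct1 lies in the epidermal differentiation complex, where genes of the cornified envelope of the skin are clustered. Basp1 encodes a membrane-bound protein related in behavior to MARCKS, Dynap a transmembrane protein that binds dynactin, and Fn1 fibronectin, a matrix glycoprotein bound by integrins.

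In the GENCODE M21 annotation of GRCm38, all 8 genes were on the minus strand. Prl2c3 (ENSMUSG00000056457, chr13:12790816-12800079) and Prl2c2 (ENSMUSG00000079092, chr13:12996125-13005383) were neighbors, with Ctla2a (ENSMUSG00000044258, chr13:60934155-60936625) farther along the same chromosome. The others were Fn1 (ENSMUSG00000026193, chr1:71585520-71653200), Crct1 (ENSMUSG00000027913, chr3:93014205-93015687), Pgf (ENSMUSG00000004791, chr12:85166635-85177790) and Basp1 (ENSMUSG00000045763, chr15:25363277-25413764). The transcripts of Prl2c2 and Prl2c3 matched at 838 of 842 aligned bases (99.5%) and at all 295 aligned bases of the last 300, the end that these libraries tag. Reads from that end cannot be told apart between both genes, so their separate levels are uncertain. Prl2c5 matched Prl2c3 at 96.4% and Prl2c2 at 96.6% of aligned bases, and Ctla2b matched Ctla2a at 88.8%.

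Ctla2a and Prl2c3 each have a near copy that was almost silent in the same cells, and so their upstream sequences are printed beside those of the copies. RefSeq promoter entries (GRCm38.p6, the 250 bases before a transcript start) matched 4 of the 8 genes. Prl2c2, the closest copy of Prl2c3 and not silent, was not among them. Since reads of Prl2c2 and Prl2c3 cannot be told apart, it is uncertain how many came from the Prl2c3 start printed here. Capitals mark the AP-1 motif TGANTCA, which reads the same on both strands and was searched on both.
Prl2c3, chr13:12800080-12800329, minus strand: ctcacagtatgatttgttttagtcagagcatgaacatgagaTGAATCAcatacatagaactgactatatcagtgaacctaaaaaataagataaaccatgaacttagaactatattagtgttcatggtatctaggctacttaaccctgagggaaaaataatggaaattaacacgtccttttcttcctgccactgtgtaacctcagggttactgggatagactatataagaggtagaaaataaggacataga
Prl2c5, chr13:13182466-13182715, plus strand: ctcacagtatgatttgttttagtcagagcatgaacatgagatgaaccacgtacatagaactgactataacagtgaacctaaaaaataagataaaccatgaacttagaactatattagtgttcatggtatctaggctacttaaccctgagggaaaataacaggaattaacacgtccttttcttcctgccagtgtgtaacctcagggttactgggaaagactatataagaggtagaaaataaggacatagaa
Ctla2a, chr13:60936626-60936875, minus strand: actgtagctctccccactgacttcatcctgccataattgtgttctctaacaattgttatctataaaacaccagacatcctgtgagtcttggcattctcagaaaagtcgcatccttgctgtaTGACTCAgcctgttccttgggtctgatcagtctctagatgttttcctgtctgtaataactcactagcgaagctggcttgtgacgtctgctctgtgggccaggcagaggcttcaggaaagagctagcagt
Ctla2b, chr13:60897448-60897697, minus strand: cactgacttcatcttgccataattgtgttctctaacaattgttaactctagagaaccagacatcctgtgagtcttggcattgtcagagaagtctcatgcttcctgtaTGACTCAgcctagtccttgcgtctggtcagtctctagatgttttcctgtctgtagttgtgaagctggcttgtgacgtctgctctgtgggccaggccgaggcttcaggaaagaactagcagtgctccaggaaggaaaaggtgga
The Prl2c3 and Prl2c5 runs were identical at 241 of 249 aligned bases. One of the 8 substitutions, T46C counted from the 5' end of the Prl2c3 run, fell in its motif, so the letters of the motif were in the Prl2c3 run and not in the Prl2c5 run. The Ctla2a and Ctla2b runs were identical at 208 of 228 aligned bases and both held the motif. Neither start of Pgf nor the start of Basp1 held it, and 2189 of 32536 RefSeq promoters of this length did (6.73%). These matches describe letters only. In Progenitor.2 cells Prl2c5 was at 1.79, 0.315, 6.56 and 2.46 CPM and Ctla2b at 1.79, 1.73, 3.23 and 2.22 CPM, all far below the levels of Prl2c3 and Ctla2a given next.

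Progenitor.2 cells were epithelial by their markers. Krt8, a keratin of simple epithelia, was at 8636, 7141, 6006 and 4706 CPM in them and Epcam at 4384, 4706, 2393 and 2601 CPM, while the collagen genes Col1a1, Col1a2 and Col3a1 stayed at 2.38 CPM or lower. The genes of cycling and stem cells were low for a class with this name, with 5 of 5 markers at least 2-fold lower than in Progenitor.1 in every library. Mki67, a marker of cycling cells, was at 1.79, 9.77, 4.14 and 7.82 CPM, against 174, 225, 200 and 225 CPM in Progenitor.1. All 4 regenerative markers were at least 2-fold higher in Progenitor.2 than in Progenitor.1 in every library, with Ly6a at 4621, 3336, 4005 and 2635 CPM against 1219, 816, 968 and 593 CPM. Absorptive markers were uneven between libraries, with Car1 at 2815, 1365, 676 and 508 CPM in Progenitor.2 and Aqp8 at 138, 62.8, 1.21 and 4.27 CPM. All 4 absorptive markers were at least 2-fold lower in untreated Tnfr2-/- than in untreated WT Progenitor.2 cells (3.66% of genes). They were also at least 2-fold lower in WT TNF than in untreated WT (3.18% of genes). Secretory markers were uneven too, with the goblet gene Tff3 at 33.4, 511, 74.4 and 1732 CPM. Of the goblet markers compared, 4 of 4 were at least 2-fold higher with TNF in WT (4.28% of genes). In Tnfr2-/- cells 3 of 3 goblet and 2 of 2 enteroendocrine markers compared were (0.844% of genes). The defining genes of trophoblast were at or near 0. Of 8 trophoblast markers, Prl3b1, Hand1 and Gcm1 had 0 UMIs in Progenitor.2, and Tpbpa, Prl3d1 and Plac1 reached at most 0.596 CPM. The remaining 2, Cdx2 and Ascl2, are also intestinal genes and were lower in Progenitor.2 than in Progenitor.1, at 2.98 to 6.93 CPM and 0 to 13.96 CPM.

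Ctla2a was highest in the untreated Tnfr2-/- library and lowest in untreated WT. Its level in Progenitor.2 was 349 CPM (95% Poisson interval 321–378), 750 (735–766), 2882 (2849–2916) and 1013 (1002–1023). These intervals, like the binomial ones on shares below, cover counting error only. In Progenitor.1 cells of the same libraries it was at 8.87, 7.39, 60.5 and 6.83 CPM, a contrast on which the gene was chosen. The proliferins were high in both untreated cultures and low in the WT TNF culture. Prl2c2 was at 466 (434–500), 22.5 (20.0–25.3), 700 (684–717) and 149 (145–154) CPM. Prl2c3 followed it at 734 (694–776), 18.1 (15.8–20.5), 756 (739–773) and 177 (172–181) CPM. In Progenitor.1 the proliferins did not exceed 19.3 CPM (Prl2c2) and 8.03 CPM (Prl2c3), both in the untreated Tnfr2-/- library.

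Pgf had another order, with almost nothing in untreated WT cells and the highest level in Tnfr2-/- cells with TNF. It was at 1.19 (0.144–4.30), 30.1 (27.2–33.3), 72.3 (67.1–77.8) and 224 (219–229) CPM, the first value being 2 UMIs. Crct1 was at 125.1 (109–143), 17.97 (15.7–20.5), 412 (400–425) and 338 (332–344) CPM. Dynap was at 259 (235–285), 52.0 (48.1–56.2), 216 (207–226) and 191 (186–195) CPM. Dynap lies at chr18:70240429-70244582 (ENSMUSG00000024512). Crct1 and Dynap, like the proliferins, were lowest in the WT TNF library. Basp1 was the most even, at 232 (210–256), 247 (239–256), 347 (335–358) and 400 (393–407) CPM, and the counting intervals of its WT levels overlapped. Fn1 was at 40.5 (31.4–51.3), 221 (213–230), 269 (259–279) and 202 (197–207) CPM.

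**Figure D1:**
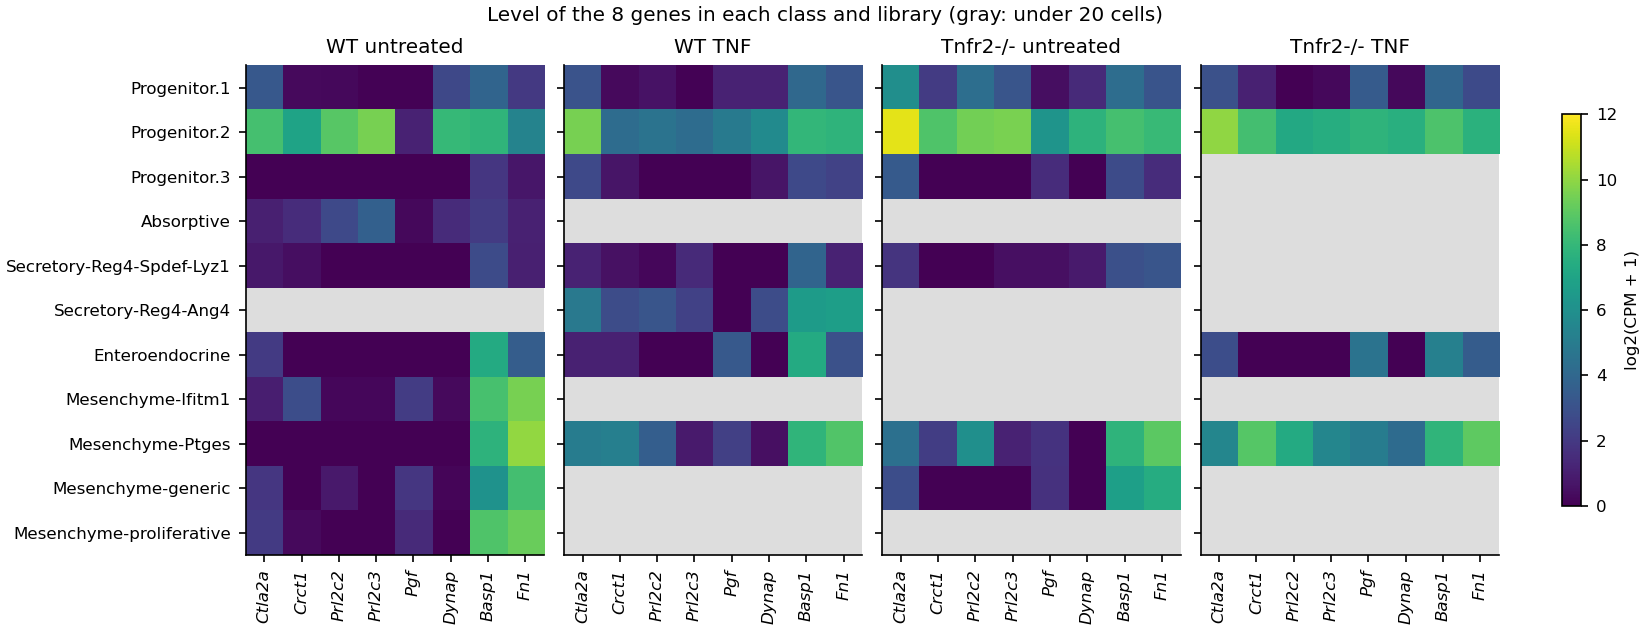
Level of each of the 8 genes (columns) in each class (rows) and library (panels), as log2(CPM + 1) by color from 0 to 12, with classes of under 20 cells in gray. In the Progenitor.2 row every gene is at 17.97 CPM or more except Pgf in the untreated WT library (1.19 CPM), and Basp1 and Fn1 are also high in the mesenchymal rows.

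Compared within each library, 5 of the 8 genes (Ctla2a, Prl2c2, Dynap, Basp1 and Fn1) were at least 2-fold higher in Progenitor.2 than in Progenitor.1 in all 4 libraries with at least 20 CPM in 1 class, against 6.52% of the 5598 genes compared, and the genes were chosen on this contrast. Crct1 and Prl2c3 stayed under 20 CPM in the WT TNF library and Pgf in the untreated WT library. With no minimum level the count was 8. Against all other epithelial cells together, Crct1 was rank 1 and Pgf rank 3 by fold among 6190 genes, with Prl2c3, Dynap and Ctla2a at ranks 5, 6 and 7 and Fn1, Prl2c2 and Basp1 at ranks 13, 14 and 19. No list length came with the choice, so values just inside and just outside it cannot be given.

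At an even depth, each gene was found in a minority of Progenitor.2 cells. With every cell thinned at random to 5000 UMIs, Ctla2a had a UMI in 7.14% (1.98–17.3), 8.52% (5.48–12.5), 25.8% (20.2–32.0) and 20.8% (17.9–24.02) of Progenitor.2 cells. For Prl2c3 the shares were 21.4%, 3.70%, 54 of 225 cells and 11.3%, and for Prl2c2 17.9%, 3.33%, again 54 of 225 cells and 13.5%. Pgf was found in 0 of 56 thinned cells of the untreated WT culture, which allows a share of up to 5.36% (3 cells of 56, with an exact binomial upper bound of 6.38%), and in 4.07%, 16.0% and 30.8% of the cells of the other libraries. Basp1 was found in 14.3%, 25.6%, 40.0% and 45.4% of cells, with the Tnfr2-/- cultures above the WT cultures. For Crct1, Dynap and Fn1 the share was lower in the WT TNF library than in either Tnfr2-/- library. Crct1 was in 14.3%, 2.59%, 23.6% and 18.7%, Dynap in 12.5%, 9.63%, 28.0% and 24.9%, and Fn1 in 3.57%, 10.4%, 13.8% and 14.6% of cells. In Progenitor.1 cells thinned to the same depth the highest share of any library was 0.932% for Prl2c2, 0.621% for Prl2c3, 1.06% for Crct1, 1.65% for Dynap, 4.26% for Pgf, 5.43% for Ctla2a, 7.45% for Fn1 and 9.57% for Basp1. Before thinning the median Progenitor.1 cell had 42680 to 46629 UMIs. Shares in Progenitor.2 were larger before thinning. In the Tnfr2-/- TNF library they were then 52.2% for Pgf, 38.5% for Dynap, 35.9% for Ctla2a and 34.6% for Crct1. For Prl2c3 and Prl2c2 they were 22.6% and 22.2% in the same library.

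**Figure D2:**
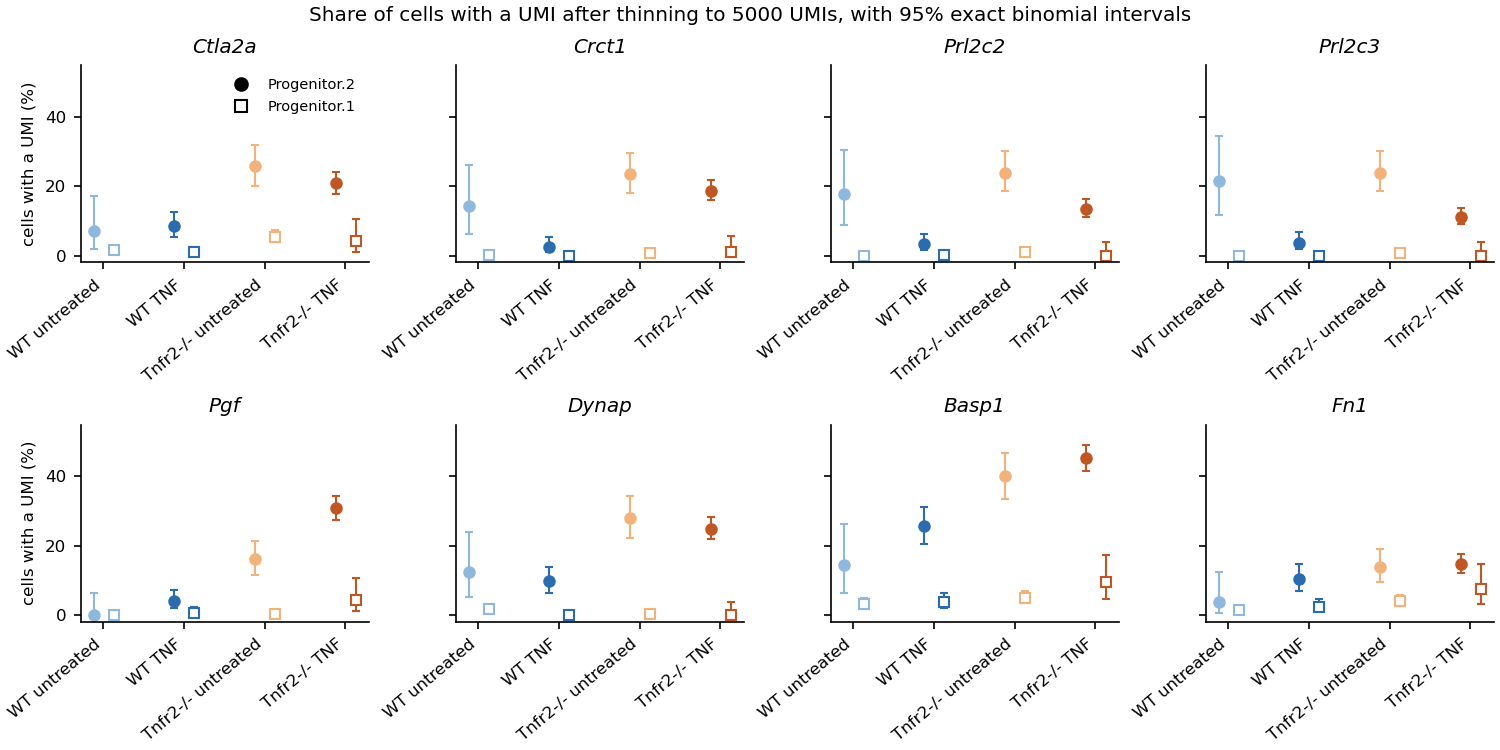
Share of cells with at least 1 UMI of each gene after thinning to 5000 UMIs (percent, vertical axis), in Progenitor.2 (filled circles) and Progenitor.1 (open squares) of each library, with exact 95% binomial intervals as bars. Shares in Progenitor.2 lie between 0% (Pgf, untreated WT) and 45.4% (Basp1, Tnfr2-/- with TNF).

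A handful of cells held most of the molecules of some genes. The 5 richest Progenitor.2 cells of a library held 99.1%, 89.3%, 58.4% and 34.6% of the Ctla2a UMIs, and 1 cell of the untreated Tnfr2-/- library alone had 6218. For Fn1 these shares were 100%, 73.7%, 46.2% and 25.7%, and for Basp1 77.7%, 36.8%, 18.7% and 9.45%. In the Tnfr2-/- TNF library the richest 10% of cells for each gene held between 58.0% (Basp1) and 96.6% (Prl2c3) of its UMIs, beside a median of 36.4% over the 5272 genes at 20 CPM or more. Of those genes 29 (0.550%) were as concentrated as Prl2c3. Without the 5% of cells richest in a gene, Ctla2a was at 6.19, 11.9, 421 and 193 CPM and Basp1 at 87.3, 105, 248 and 280 CPM. The count of genes higher in Progenitor.2 than in Progenitor.1 in every library then fell from 5 to 1, and without the 5 richest cells to 2.

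Outside Progenitor.2 all 8 genes were also found in mesenchymal cells, Fn1 and Basp1 in all 4 mesenchymal classes. Fn1, which fibroblasts make, was at 170 to 1074 CPM in mesenchymal classes of 20 cells or more. These levels were above that of Progenitor.2 in the same library except in Mesenchyme-generic of untreated Tnfr2-/- (170 against 269 CPM). Basp1 ranged from 68.4 to 414 CPM in the same classes. From the ratio of Fn1 to the 3 collagen genes in mesenchymal cells, the collagen UMIs found in Progenitor.2 corresponded to 0.573, 3.28, 1.69 and 10.9 Fn1 UMIs, where 68, 2805, 2664 and 6810 were counted. Basp1 was also at 160 and 159 CPM in WT enteroendocrine cells, the hormone cells of the gut, and at 36.9 CPM in those of the Tnfr2-/- TNF library. Fn1 and Basp1 were at 106 and 94.2 CPM in the Secretory-Reg4-Ang4 class of the WT TNF library (54 and 48 UMIs), where 2 of 246 cells were deep enough to thin.

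Of the other 6 genes, those above 10 CPM in mesenchyme were in a single class, Mesenchyme-Ptges. Their highest levels there were 453 CPM for Crct1, 158 for Prl2c2, 44.9 for Ctla2a, 44.4 for Prl2c3, 31.4 for Pgf and 17.4 for Dynap. In Mesenchyme-Ptges cells of the Tnfr2-/- TNF library Crct1 was thus above its level in Progenitor.2 (453 against 338 CPM), but 1 cell gave 1236 of the 2161 UMIs and without the 5 richest cells 45.02 CPM were left. Prl2c2 was at 158 against 149 CPM in the same cells, with overlapping counting intervals and a UMI in 44 of 122. In the WT TNF library Crct1 was at 35.6 CPM in Mesenchyme-Ptges against 17.97 CPM in Progenitor.2, and Ctla2a at 32.3 CPM. In the WT TNF library all 14 Mesenchyme-Ptges cells with 10 or more Crct1 UMIs, and all 12 with as many of Ctla2a, had more collagen than Krt8, Krt18 and Epcam UMIs. In the Tnfr2-/- TNF library this held for 14 of 19 cells for Prl2c2, 4 of 9 for Crct1, 4 of 8 for Prl2c3, 1 of 4 for Pgf and 0 of 2 each for Ctla2a and Dynap. The cell with 1236 Crct1 UMIs had 13 UMIs of those epithelial genes and 2 of collagen. In the remaining classes of 20 cells or more other than Progenitor.1, the highest levels were 27.5 CPM for Ctla2a (14 UMIs, Secretory-Reg4-Ang4), 22.6 CPM for Pgf (11 UMIs, Enteroendocrine, Tnfr2-/- TNF), 11.96 CPM for Prl2c3 (Absorptive, untreated WT), 7.85 CPM for Prl2c2, 6.23 CPM for Crct1 and 5.89 CPM for Dynap. A single enteroendocrine cell of the untreated Tnfr2-/- library held 489 of the 490 Ctla2a UMIs of its class.

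The 8 genes were often found in the same cells. Of all 416 thinned cells with a UMI of 3 or more of them, 354 (85.1%) were Progenitor.2, 41 were Mesenchyme-Ptges and 3 were Progenitor.1. Of the 242 cells with 4 or more, 224 (92.6%) were Progenitor.2 and the remaining 18 were Mesenchyme-Ptges. Within Progenitor.2, 8 of 56, 31 of 270, 83 of 225 and 232 of 710 thinned cells had 3 or more. If each gene had been spread over the cells independently, with its own share kept, 2.71, 5.34, 68.5 and 181 such cells would have been counted. At the other end 37, 188, 74 and 269 cells had none of the 8 genes, where independence gave 20.8, 130, 23.1 and 84.9. Cells with 0 and cells with many of the genes were both more numerous than the product of the shares, in each of the 4 libraries. Sets of other genes were not counted in this way, so this is not shown to be particular to the 8. Prl2c2 and Prl2c3, whose reads cannot be told apart, were counted here as separate genes. With both left out, 5, 24, 58 and 198 cells had 3 or more genes. The product was not computed without them, so the part of this pair in the excess was not tested. For 4 or more genes the counts were 6, 16, 50 and 152 cells against 0.344, 0.456, 22.9 and 53.1. Before thinning, the cells with 3 or more genes had median depths of 39327.5, 47254, 42419 and 43162.5 UMIs and those with 0 had 14182, 39586.5, 33078 and 37000 UMIs, and the part of this in the counts, beyond what thinning removes, was not tested.

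**Figure D3:**
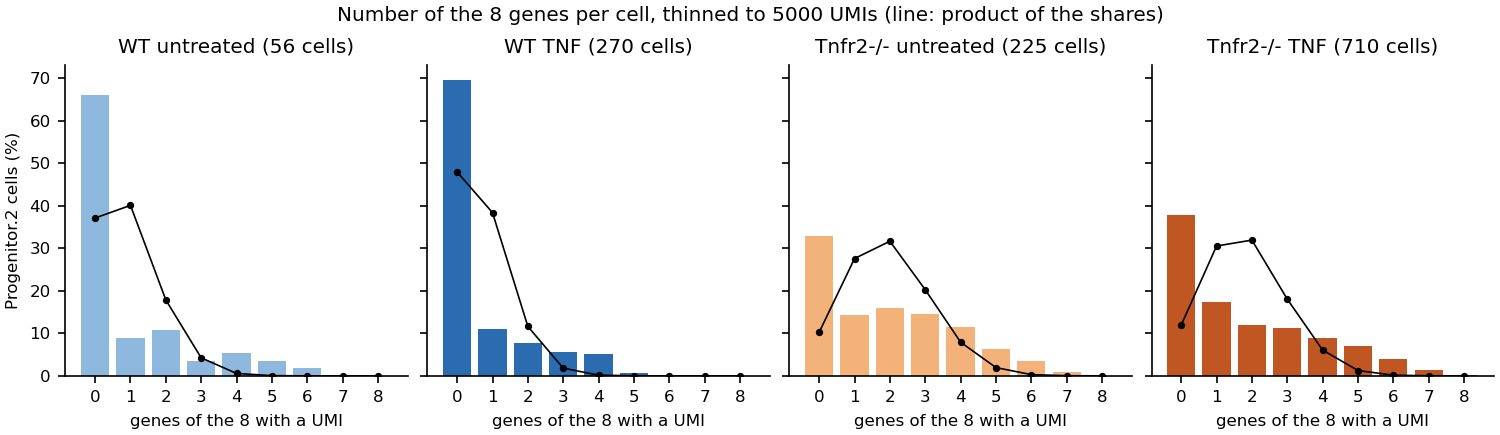
Share of Progenitor.2 cells (percent, bars) by the number of the 8 genes with a UMI after thinning to 5000 UMIs, for each library, with the share given by the product of the single-gene shares as points joined by a line. Bars exceed the line at 0, 4 and 5 genes in every panel.

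Pairs were compared where the product of shares gave 3 cells or more. Both genes were found together more often than the product in 25 of 28 pairs in the untreated Tnfr2-/- library, 27 of 28 with TNF, and 3 of 3 in the WT TNF library, and no pair could be assessed in untreated WT. The phi coefficient is 0 for independent detection and 1 for identical cells. Its median was 0.41 over the 3 pairs of WT TNF. Over the 28 pairs it was 0.19 in untreated Tnfr2-/- and 0.26 in Tnfr2-/- TNF, so the medians cover unlike sets of pairs. The 3 pairs of WT TNF were Basp1 with Ctla2a, Dynap and Fn1, at 0.40, 0.41 and 0.52. The same pairs were at 0.27, 0.46 and 0.36 in untreated Tnfr2-/-, and at 0.42, 0.40 and 0.33 in Tnfr2-/- TNF. Prl2c2 and Prl2c3, whose reads can be exchanged, had the highest phi, 0.66 and 0.65 in the Tnfr2-/- libraries. After them stood Dynap with Basp1 in the untreated library (0.46) and Ctla2a with Fn1 in the TNF library (0.47). In the Tnfr2-/- TNF library Ctla2a and Fn1 shared 70 cells against a product of 21.7, and 85.6% of the cells with Fn1 also had Basp1.

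Fn1 and the proliferins went the other way in untreated Tnfr2-/- cells. In the untreated Tnfr2-/- library 3 cells had both Prl2c2 and Fn1 where the product was 7.44, and the count was also 3 for Prl2c3 with Fn1. Their phi was -0.13 in both pairs. With TNF in Tnfr2-/- cells, 14 cells had Prl2c2 and Fn1 against 14.1 and 15 had Prl2c3 and Fn1 against 11.7. Thus the matrix gene and the hormone genes each met Basp1 and Dynap more often than the product, but not each other in the untreated library. Pgf, with phi from -0.01 (Ctla2a) to 0.27 (Crct1) in untreated Tnfr2-/- cells, gave the other pair under the product, 9 cells with Ctla2a against 9.28.

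**Figure D4:**
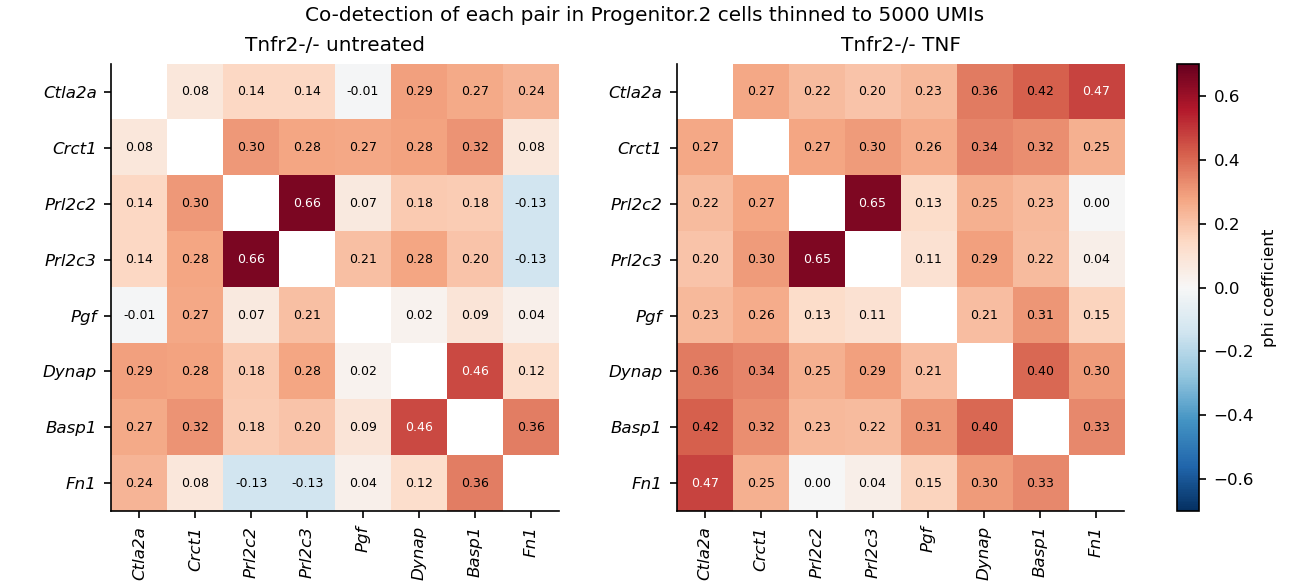
Phi coefficient of joint detection for each pair of the 8 genes (rows and columns) in Progenitor.2 cells thinned to 5000 UMIs, in the untreated and the TNF library of Tnfr2-/- colonoids, on a color scale from -0.7 to 0.7. The Prl2c2 and Prl2c3 square is darkest at 0.66 and 0.65, and the squares of both with Fn1 are at -0.13 in the untreated panel.

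The authors' classes had been made with these genes included, so all cells were clustered again without the 8 genes, which gave 20 clusters. One of them, cluster 5, held 479 cells of which 475 (99.2%) were Progenitor.2, and it was led by Sprr2f, S100a9, Try5, Krt16 and Aldh1a3. It held 321 of the 354 Progenitor.2 cells with 3 or more of the 8 genes (90.7%), although none of the 8 had been used. Of the 8 genes 7 had their highest level there among the 20 clusters. It had 91.9% of all Dynap UMIs, 89.9% of Prl2c3, 87.3% of Ctla2a, 82.0% of Prl2c2, 80.7% of Crct1, 71.7% of Pgf and 49.5% of Basp1. Fn1 was highest in a mesenchymal cluster of 32 cells, at 1506 CPM.

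Over all libraries, most of the remaining Progenitor.2 cells lay in 2 clusters in which these genes were lower than in cluster 5. Cluster 4, led by Cubn and Prr9, had 490 of them, and cluster 12, led by Ubd and Guca2b, had 169, of which 160 came from the WT TNF library. In cluster 4 the Progenitor.2 cells had Pgf at 99.6 CPM, Ctla2a at 80.3 CPM and Basp1 at 74.2 CPM, with the other 5 genes between 7.96 and 30.3 CPM. By library, cluster 4 had Pgf at 137 CPM in WT TNF and Ctla2a at 421 CPM in untreated Tnfr2-/-. In cluster 12 no gene of the 8 passed 12.5 CPM over all libraries. Other clusters held 150 Progenitor.2 cells, with Ctla2a at 713 CPM. In untreated WT these were 35 of 62 cells, with Ctla2a at 680 CPM against 144 CPM in cluster 5. A Ctla2a UMI was found in 6.06% of those untreated WT cells after thinning. Cluster 5 took 29.0% (18.2–41.9), 19.8% (15.2–25.01), 49.4% (42.8–56.0) and 40.2% (36.6–43.9) of the Progenitor.2 cells of each library. The shares were larger in both libraries of Tnfr2-/- colonoids, and the interval with TNF overlapped that of untreated WT. These intervals count cells of 1 library and are no test between the groups.

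Within cluster 5 the levels of the libraries lay closer together than over all Progenitor.2 cells for Dynap and farther apart for Basp1. Dynap was at 458, 216, 382 and 407 CPM and Basp1 at 406, 936, 582 and 811 CPM. Ctla2a was at 144, 3252, 4851 and 2063 CPM, and so the WT TNF cells of this cluster lay between those of both Tnfr2-/- libraries. Crct1 was at 221, 74.8, 729 and 727 CPM, Prl2c2 at 823, 86.8, 1163 and 318 CPM, and Prl2c3 at 1294, 71.7, 1241 and 391 CPM. The proliferins were therefore lower with TNF than without it in both genotypes when only this cluster was counted. Pgf was at 2.10, 42.9, 93.1 and 395 CPM and Fn1 at 71.5, 951, 474 and 449 CPM. The untreated WT values rest on 18 cells.

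**Figure D5:**
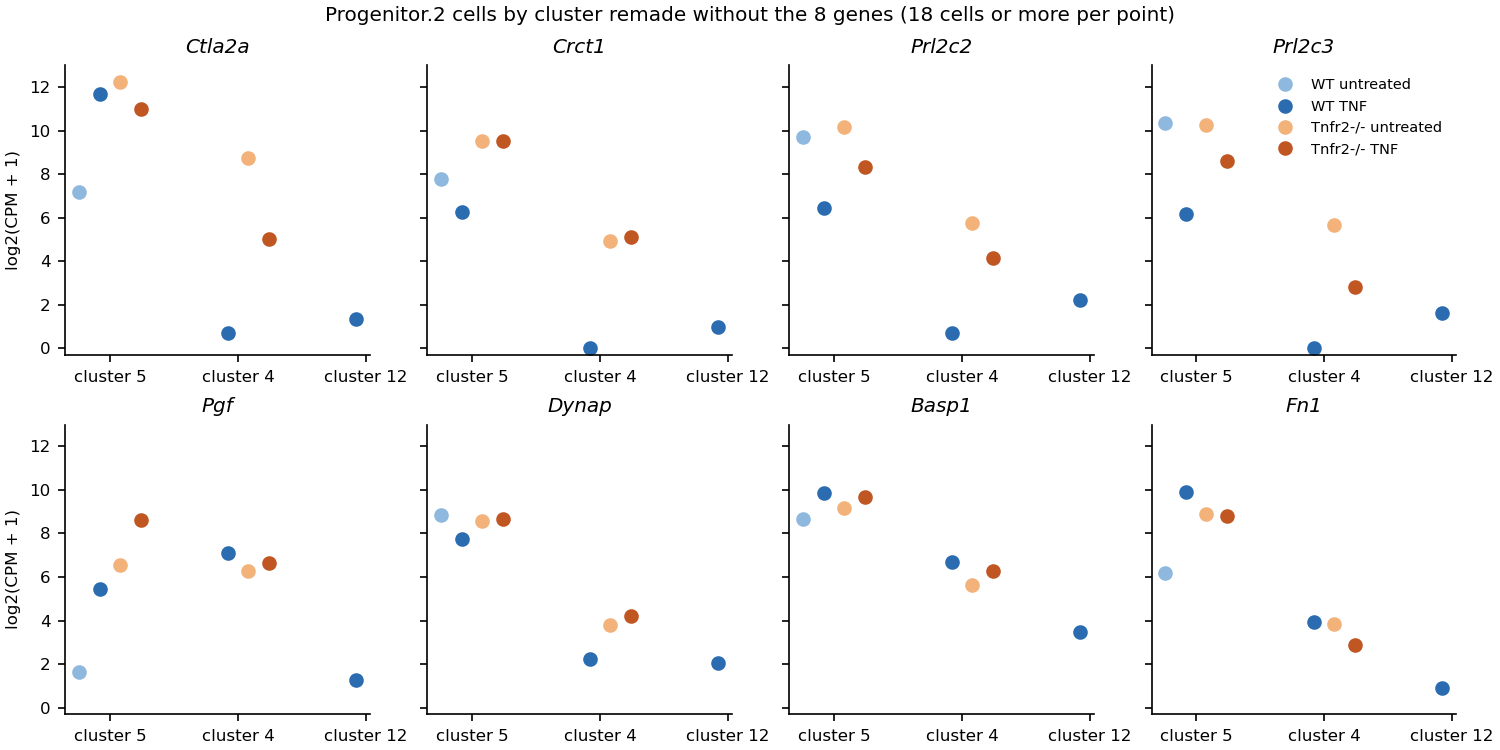
Level of each gene, as log2(CPM + 1), in the Progenitor.2 cells of 3 clusters made without the 8 genes, with 1 point for each library that had at least 18 such cells. Within a library, points of cluster 5 stand above those of clusters 4 and 12 for every gene except Pgf in WT TNF (42.9 CPM in cluster 5 and 137 CPM in cluster 4).

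Progenitor.2 cells with 3 or more of the 8 genes also differed from Progenitor.2 cells with none of them in other genes, a comparison chosen after seeing the data and described without a test. Each value is the difference, in percentage points, in the share of cells with a UMI after thinning to 5000 UMIs, in the order WT untreated, WT TNF, Tnfr2-/- untreated and Tnfr2-/- TNF. Of 2711 genes, 51 (1.88%) were 20 points or more higher in every library and 74 (2.73%) lower. Timp2, an inhibitor of matrix metalloproteinases, differed by 78.4, 77.0, 53.7 and 61.8 points. Clu differed by 49.0, 84.5, 35.1 and 57.1 points, Msln (mesothelin) by 48.0, 58.8, 41.7 and 56.1 points, and Cdkn2a, a cell cycle inhibitor, by 22.3, 70.4, 41.6 and 42.8 points. Of 90 genes of the fetal intestine list that could be compared, 16 were higher in every library and 1, Car2, was lower. Car2, a carbonic anhydrase of mature colon, differed by -63.2, -68.3, -54.8 and -60.6 points. The absorptive marker Car1 differed by -74.0, -63.3, -34.8 and -26.4 points. The other absorptive markers differed little in Tnfr2-/- cells. Aqp8 was at -32.4, -17.6, -1.35 and -0.684 points, Slc26a3 at -32.4, -13.3, -1.35 and -0.743, and Car4 at -21.6, -0.532, -1.35 and -0.312. Of the regenerative markers beside Clu, Ly6d went the other way in WT TNF. Ly6a differed by 10.8, 1.06, 7.05 and 14.1 points, Anxa1 by 13.5, 7.41, 4.35 and 12.6, and Ly6d by 13.2, -27.3, 27.5 and 38.1. The median depths of both kinds of cell are given above, and their part in these differences was not tested.

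The genotypes were compared in Progenitor.2 cells of the untreated pair and of the TNF pair, with at least 2-fold and 20 CPM in 1 library as the rule of size. In the untreated pair 4 of the 8 genes were higher in Tnfr2-/-, where 4.32% of the 5900 genes compared were, and none was lower (3.66% of genes). They were Pgf (log2 difference 5.07, counting interval of the ratio 4.07–8.97), Ctla2a (3.04, 2.93–3.17), Fn1 (2.70, 2.38–3.10) and Crct1 (1.71, 1.52–1.93). The differences of Prl2c2 (0.59), Basp1 (0.58), Prl2c3 (0.04) and Dynap (-0.26) were under 2-fold. In the TNF pair 5 genes were higher in Tnfr2-/-, beside 2.99% of 5718 genes, and none was lower (4.93%). These were Crct1 (4.16), Prl2c3 (3.22), Pgf (2.86), Prl2c2 (2.68) and Dynap (1.85), while Basp1 (0.69), Ctla2a (0.43) and Fn1 (-0.13) were not. Pgf and Crct1 were thus the genes past the rule in both pairs.

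Few cells decided part of these counts. With the 5% of cells richest in a gene left out of each library, 5 genes were higher in Tnfr2-/- in the untreated pair and 8 in the TNF pair. In the untreated pair Basp1 (1.49) was then added, and Prl2c2 (0.52), Prl2c3 (0.65) and Dynap (0.66) stayed under 2-fold. The untreated WT level of Pgf and of Fn1 was then 0. With the 5 richest cells left out, 8 genes were higher in both pairs, but this takes 5 of 62 untreated WT cells and 5 of 233 or more in the Tnfr2-/- libraries. In cluster 5 alone, 4 genes were higher in untreated Tnfr2-/- cells (7.5% of genes compared) and 4 with TNF (2.9%), where Fn1 was lower (log2 difference -1.08, 4.52% of genes). The genotypes also differed in how many cells of each library were in Progenitor.2, in its absorptive markers, in depth and in Xist. The part of these in the differences was not tested.

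TNF was compared with no TNF in each genotype. In WT Progenitor.2 cells, Pgf (3.83, counting interval of the ratio 2.80–7.71, against 2 UMIs), Fn1 (2.42) and Ctla2a (1.10) were higher with TNF (3 of 8 genes, beside 4.28% of 5749). Prl2c3 (-5.27), Prl2c2 (-4.31), Crct1 (-2.73) and Dynap (-2.29) were lower (4 of 8, beside 3.18%). Basp1 differed by 0.09. In Tnfr2-/- cells Pgf was the 1 gene higher with TNF (1.62, beside 0.844% of 5687 genes), and Prl2c2 (-2.22), Prl2c3 (-2.09) and Ctla2a (-1.51) were lower (3 of 8, beside 1.14%). Crct1 (-0.29), Dynap (-0.18), Basp1 (0.21) and Fn1 (-0.41) differed by less than 2-fold. Pgf was therefore higher and both proliferins lower with TNF in each genotype, and the comparisons share no library. Goblet markers of the class were also higher with TNF, as given above, and their part in these differences was not tested.

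In cluster 5 the directions of Pgf and the proliferins were kept. Pgf differed by 3.82 in WT and 2.07 in Tnfr2-/- cells (9.34% and 1.63% of genes higher), Prl2c2 by -3.23 and -1.87 and Prl2c3 by -4.16 and -1.66 (2.58% and 1.29% lower). Basp1 passed the rule in WT cells of cluster 5 (1.20), where it had differed by 0.09 over all Progenitor.2 cells. Some WT values moved when the richest cells were left out. Dynap differed by -1.76 without the 5% richest cells and by -1.08 in cluster 5, and by 0.17 without the 5 richest, which are 5 of 62 untreated and 5 of 273 TNF cells. Without the 5% richest cells Ctla2a differed by 0.85, under 2-fold. Pgf (1.38 against 0 CPM) and Fn1 (17.0 against 0 CPM) were then under the minimum of 20 CPM, so none of the 8 genes passed as higher with TNF in WT. In Progenitor.2 of the WT TNF library 58.6% of the cells lay in cluster 12, and 3.23% of those of the untreated WT library did.

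Lists of related genes were placed beside the members, with Progenitor.2 set against Progenitor.1 in every library as above. Of 26 relatives of the prolactins and of Ctla2a, 3 reached 20 CPM in Progenitor.2 of a library and 11 had 0 UMIs there. Prl2a1, a prolactin-like gene elsewhere on chromosome 13 (chr13:27801654-27808729), was at 167, 4.41, 94.95 and 46.1 CPM. In untreated WT 5 cells held all 280 of the Prl2a1 UMIs, and in untreated Tnfr2-/- 1 cell held 599 of 941. Prl7b1 was at 91.4 CPM in the untreated Tnfr2-/- library, where 1 cell held 872 of its 906 UMIs. Prl8a9 was at 36.8 CPM in the same library, where 1 cell held 348 of 365 UMIs. Of 58 genes of trophoblast and placenta, 11 reached 20 CPM and 19 had 0 UMIs in Progenitor.2. Among them 5 could be compared and 1, Serpinb9b, a granzyme inhibitor relative, was higher in Progenitor.2 in every library (129, 23.6, 147 and 35.8 CPM against 0.195 to 4.85 CPM).

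Genes of the cornified envelope, listed with its keratins and several of them neighbors of Crct1, were high in more cases. Of 64 measured, 23 reached 20 CPM and 11 could be compared in every library, of which 8 were higher in Progenitor.2 and 0 lower, beside 6.52% and 8.36% of all genes. Sprr1a, a small proline-rich protein, was at 129, 124, 120 and 226 CPM against 1.497 to 7.83 CPM in Progenitor.1. Prr9 was at 43.5, 156, 120 and 349 CPM. The others of the 8 were Evpl, Dsc2 and, of the Sprr2 family, Sprr2a1, Sprr2a2, Sprr2a3 and Sprr2b. No keratin was among the 8. Krt16, a keratin of activated skin, was at 88.7, 14.2, 255 and 109 CPM, under the minimum in WT TNF. Krt6a and Krt14 were under 2-fold in untreated WT (log2 difference -0.58 and 0.71). Cysteine cathepsins, the proteases that Ctla2a-like inhibitors act on, were present as well. Of 18 cathepsins and cystatins, the latter inhibitors themselves, 8 could be compared and 3 were higher. These were the protease genes Ctsl and Ctss and the cystatin gene Cstb. Ctsl, the gene of cathepsin L, was at 1532, 760, 1368 and 979 CPM against 122 to 167 CPM.

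Genes for partners of the other members were measured in the same way. Of 12 fibronectin receptors, 4 could be compared and 3 integrin genes were higher in Progenitor.2, namely Itgb1 (476, 451, 500 and 483 CPM), Itgav (76.8, 92.4, 109 and 126 CPM) and Itgb6 (113, 129, 119 and 104 CPM). Of 9 measured VEGF ligands and receptors, 3 could be compared and 0 were higher or lower. Vegfa was at 41.7, 127, 113 and 213 CPM in Progenitor.2, the same order of untreated WT lowest and Tnfr2-/- TNF highest as Pgf. Of 3 MARCKS-like genes 2 could be compared and 0 passed. A list of 315 genes of the fetal intestine, given by the study and holding Basp1 and Prl2c3, had 289 measured and 134 compared, with 53 higher and 3 lower.

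The genes most like each member were sought over 27 sums of a class in a library, each of 20 cells or more, among 10105 genes. The likeness is a Pearson correlation of log2(CPM + 1), and the sums share libraries and cells of like depth, so it is given without a p-value. Dynap was closest to Gm4610 (0.97), Slc6a14 (0.93) and Serpinb9b (0.92), and Prl2c3 to Gm4610 (0.94), Gml (0.92) and Ankrd1 (0.92). Prl2c2 and Crct1 shared all 3 of their nearest genes, Il1a, Ankrd1 and Adam8, at 0.84 to 0.90. Ctla2a was closest to Il18r1 (0.91), Il1a (0.89) and Krt16 (0.87). Basp1, which mesenchyme also had, was closest to Atxn10 (0.93), Itgb1 (0.92) and Rnf11 (0.90), and Fn1 to Inhba (0.96), Tmem140 (0.93) and Map7d1 (0.93). Pgf had the loosest partners, Ak4 (0.80), Npepps (0.79) and Ero1l (0.78). Between the 8 members themselves the correlation ran from 0.26 to 0.94 with a median of 0.57.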

How the data were processed

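Single-cell 3' RNA-seq (10X Chromium) was performed on WT and Tnfr2-/- colonoids without or with TNF, with 1 library per group. The authors deposited raw UMI counts per gene and cell, made with Cell Ranger 5.0.0 on mm10 per the submitters' processing notes. Per the study's methods, the authors used monocle3 to remove cells under 100 UMIs and doublets of epithelial and mesenchymal cells, and to name Leiden clusters. The deposited cell table also holds a size factor and plotting coordinates per cell (score values), which were not used. The total count per library was 87228093, 56063515, 53178273 and 44547639 UMIs, and the shallowest cell had 894.

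UMIs were summed per class and library and scaled to CPM, with exact Poisson 95% intervals. Differences are on the log2(CPM + 1) scale, which understates changes of low genes, and were called at 2-fold or more where 1 sum reached 20 CPM. Intervals of differences are exact conditional intervals of the ratio. For shares, each cell was thinned to 5000 UMIs (405 shallower cells left out), with exact Clopper-Pearson intervals. A share of 0 allows up to 3 counts of the total. The product of shares was compared with cells holding both genes of a pair, and phi was computed. Clusters were remade in igraph 0.11.9, in place of the planned scanpy, by the Leiden method from 2000 variable genes without the 8 genes (50 components, 20 neighbors, resolution 1). Promoters were RefSeq (GRCm38.p6), positions GENCODE M21, and transcripts were aligned in Biopython 1.88. Python 3.11.15, NumPy 2.4.6, SciPy 1.17.1, pandas 2.3.3, matplotlib 3.10.9, R 4.3.3 and edgeR 4.0.16 (TMM factors only) were used, and the difference script was tested on simulated data.

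No test between groups is possible with 1 library each. The members and the gene lists were chosen with earlier results of these data known. Genes named are the 8 members, the 3 genes most correlated with each, the reference and marker genes, and listed genes that reach 20 CPM in Progenitor.2 of any library, with near copies of the members added. Genes leading the remade clusters and those named between Progenitor.2 cells with many and with none of the 8 were chosen after their values were seen. Alternatives changed the pseudocount, minimum, scaling, weight of cells, cells kept, class, thinning depth and members. Leaving out the cells richest in a member was added after seeing the data.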

Additional observations from a re-analysis of the deposited data

Results flagged for a closer look

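Ctla2a in Progenitor.2 differed in opposite directions with TNF in the 2 genotypes. The log2 difference, TNF minus untreated, was 1.10 in WT cells and -1.51 in Tnfr2-/- cells. With 1 library per group this difference between the genotypes was not tested. Without the 5% of cells richest in Ctla2a in each library the values were 0.85 and -1.12, so the WT difference was then under 2-fold, at 11.9 against 6.19 CPM. Without the 5 richest cells, which are 5 of 62 untreated and 5 of 273 TNF cells in WT, the values were 4.11 and -0.94.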

How the results depend on the processing

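In Progenitor.2 cells, 8 settings changed the scaling, pseudocount or weight of cells, or left out cells by depth or by collagen genes. These 8, which do not include leaving out the cells richest in a member, turned the sign of 0 of 160 values of the 20 differences past 2-fold. Of the 12 differences under it they turned 13 of 96 values. Over all alternatives 10 of 260 and 29 of 156 turned, and the 10 are as follows. With Progenitor.1 in place of Progenitor.2, TNF minus untreated in WT went from 1.10 to -0.23 for Ctla2a, -2.73 to 0.0023 for Crct1, -4.31 to 0.34 for Prl2c2 and -5.27 to 0.026 for Prl2c3, and Tnfr2-/- minus WT with TNF from 2.68 to -0.58 for Prl2c2 and 1.85 to -0.88 for Dynap. With all epithelial cells, TNF minus untreated went from -1.51 to 0.48 for Ctla2a in Tnfr2-/-, and in WT from -2.73 to 0.22 for Crct1 and -2.29 to 0.49 for Dynap. Without the 5 richest cells Dynap in WT went from -2.29 to 0.17.

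Genes of the 8 higher in Progenitor.2 than in Progenitor.1 in every library numbered 5, against 8 with no minimum, 2 without the 5 richest cells and 1 without the 5% richest. Those higher in Tnfr2-/- untreated went from 4 to 7 with a mean of per-cell CPM, to 8 without the 5 richest cells and to 5 without the 5% richest, and those with TNF from 5 to 8 under either removal. With TNF in WT, 3 higher became 0 without the 5% richest and 4 lower became 2 without the 5 richest.

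Over all genes, a pseudocount of 10 changed the untreated genotype pair from 255 to 150 higher and 216 to 140 lower, the TNF pair from 171 to 97 higher, and genes lower with TNF from 183 to 114 in WT and 65 to 40 in Tnfr2-/-. With no minimum the counts were 1191 and 547 for the untreated pair, 457 and 606 (main 282 lower) for the TNF pair, 927 (main 246) and 536 with TNF in WT, and 138 (main 48) and 181 in Tnfr2-/-.

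The share of Progenitor.2 cells with 4 or more of the 8 genes moved with thinning depth. In WT TNF it was 5.93%, and 1.84% at 2500 UMIs, 12.45% unthinned and 2.22% without Fn1. In untreated Tnfr2-/- it was 22.2%, and 14.2% at 2500, 35.4% at 10000, 42.9% unthinned and 16.4% with Prl2c2 and Prl2c3 as 1 gene. In Tnfr2-/- TNF it was 21.4%, and 14.7%, 29.7%, 39.9% and 17.0% without Fn1. Genes differing between Progenitor.2 cells with 3 or more and with 0 of the 8 went from 51 to 78 higher and 74 to 128 lower at 10000 UMIs. The cause of these changes was not tested, beyond the fewer cells or genes each setting leaves.

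The median of all genes moved by -0.10 to 0.05 (log2) between groups, and by -0.021 to 0.087 with TMM factors. No paired analysis was possible because each group had 1 library, and for the same reason no replicate could be left out.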

Other observations

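Between Progenitor.2 cells with 3 or more of the 8 genes and those with none, detection of Lgr5, the marker of crypt stem cells, differed by 0, 2.69, -17.9 and -23.4 percentage points after thinning to 5000 UMIs, in the order WT untreated, WT TNF, Tnfr2-/- untreated and Tnfr2-/- TNF. The untreated WT values rest on 8 cells with 3 or more genes and 37 with none. With Fn1 left out of the 8, 45 of the 51 higher and 72 of the 74 lower genes were found again, and with Prl2c2 and Prl2c3 left out, 41 and 59.

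The 35 cells with no class held Fn1 at 191 CPM and Basp1 at 82.4 CPM. Prl2c2 was at 28.2 CPM in them, with 56 of its 69 UMIs in 1 cell. Ctla2a was at 4.49 CPM, and Pgf had 0 UMIs.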
